A study of Mus musculus with 24 samples.

Results

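The genes described here are 38 genes of the lung endothelium, the cell layer that lines blood vessels: receptors, junction proteins, transcription factors and vasoactive enzymes that are used as endothelial markers or act in endothelial signalling. They were taken by name, each through its probe sets annotated to that gene alone, and the probe set with the highest mean signal over all samples stood for the gene. All 38 were on the arrays and all 38 passed the filter on low signal, out of 18193 genes with such a probe set. The study measured RNA of whole mouse lung in 4 groups of 3 samples each: wild-type mice labelled PBS, wild-type mice labelled HDM, and the same pair of treatments in mice of an IL-13 knockout (KO) strain. In allergy models HDM usually abbreviates house dust mite, and PBS, phosphate-buffered saline, usually serves as the vehicle control. IL-13 is a cytokine of allergic inflammation that acts on epithelium, smooth muscle and macrophages. The comparison asks what HDM does to endothelial RNA in the lung, and whether that differs without IL-13. The sources used here do not give the knockout allele, background strain, age, sex, dose, route or timing. Nor do the labels say whether samples of a group come from separate mice, so every p-value below is set against a spread that may be technical. Whole lung was measured, so fewer endothelial cells and less RNA per endothelial cell cannot be told apart in any value below.

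The lung holds one of the densest capillary beds of the body, and its endothelium is kept quiescent by a few receptor systems. Angiopoietin-1 from neighbouring cells signals through the receptor TIE2, VEGF from alveolar epithelium signals through VEGFR2, and circulating BMP ligands signal through the ALK1 and endoglin receptors. ERG and the SOXF factors (SOX7, SOX17 and SOX18) hold the endothelial gene programme in place, while thrombomodulin, nitric oxide and angiotensin-converting enzyme are known for control of clotting and vascular tone at the capillary surface.

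Promoter sequence is shown for 4 members that stand for the patterns described below: Tie1 and Clec14a were lower after HDM in both genotypes, Eng was called in wild type only, and Car4 was called in KO only. Each line is the 250 bases before the annotated transcription start in RefSeq, build GRCm38.p6, written 5′ to 3′ on the gene's strand. Capitals mark exact matches, on either strand, to the core letters searched: CAGGAA for ETS factors such as ERG, ATTGTT for SOX factors, AGATAA for GATA factors, CCACCC for KLF factors, TAAACA for FOX factors and TATAAA for a TATA box.
Tie1: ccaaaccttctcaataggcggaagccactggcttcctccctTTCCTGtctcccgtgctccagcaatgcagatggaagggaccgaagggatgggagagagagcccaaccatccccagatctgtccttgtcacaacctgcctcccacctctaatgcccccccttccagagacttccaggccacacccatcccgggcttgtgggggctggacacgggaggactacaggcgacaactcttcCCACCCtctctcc
Clec14a: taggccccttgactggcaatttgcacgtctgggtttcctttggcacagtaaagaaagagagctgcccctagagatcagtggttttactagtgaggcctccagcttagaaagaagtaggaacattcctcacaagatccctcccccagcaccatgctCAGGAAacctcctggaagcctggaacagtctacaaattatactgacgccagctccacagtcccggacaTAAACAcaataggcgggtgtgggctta
Eng: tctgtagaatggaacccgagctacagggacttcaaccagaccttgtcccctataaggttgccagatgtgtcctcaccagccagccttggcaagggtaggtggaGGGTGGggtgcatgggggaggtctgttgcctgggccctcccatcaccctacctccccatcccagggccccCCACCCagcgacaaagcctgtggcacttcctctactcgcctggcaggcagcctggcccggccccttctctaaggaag
Car4: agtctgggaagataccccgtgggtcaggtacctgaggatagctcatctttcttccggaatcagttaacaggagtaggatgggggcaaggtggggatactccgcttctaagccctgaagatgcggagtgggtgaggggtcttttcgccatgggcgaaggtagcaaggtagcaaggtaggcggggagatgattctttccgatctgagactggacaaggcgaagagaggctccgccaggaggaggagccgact

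The Tie1 stretch, at chr4:118489850-118490099 on the minus strand, held an ETS core 209 bases and a KLF core 13 bases before the start. That of Clec14a, at chr12:58269259-58269508 on the minus strand, held an ETS core 95 bases and a FOX core 27 bases before the start. In Eng, at chr2:32646345-32646594 on the plus strand, KLF cores lay 147 and 77 bases before the start, and in Car4, at chr11:84957504-84957753 on the plus strand, none of the 6 cores was found. The RefSeq table had start windows (250 bases before to 50 after) for 19 of the 38 members, 24 windows in all. In these longer windows, unlike in the printed stretches, Eng also held an ETS core and Car4 a TATA box. The ETS core was in 13 of the 24 windows (54.2%), against 30.6% of all 32851 windows in the table. The KLF core was in 37.5% of member windows and 31.5% of all, the SOX core in 16.7% and 10.7%, the GATA core in 12.5% and 11.2%, the TATA box in 16.7% and 13.6%, and the FOX core in 8.33% and 13.4%. These are counts of short letter strings, given as a description with no test, and windows of one gene can overlap. The member windows did not overlap, but Egfl7 and Erg gave 3 windows each and Ace 2.

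The values are array signals in arbitrary units, scaled by the authors so that a trimmed mean of each array is 150. Each sample was hybridised to 2 array types, set A and set B, and signals of different probe sets cannot be set against each other, so levels are compared between samples and not between genes. Il13 itself had signals of 3.30 to 29.9, under the filter in all groups, and KO HDM samples reached 15.5, so this probe set does not check the genotype labels. Wild-type PBS sample 2 and wild-type HDM samples 1 and 2 stood apart through skeletal muscle RNA: Tnnc2, a fast muscle troponin, was at 413, 198 and 988 in them and at 2.53 to 6.97 in the remaining 9. On set A the 5′ actin probe set gave, relative to the 3′ probe set, a measure of RNA quality, 0.464 to 0.656 in the KO HDM samples and 0.748 to 0.854 in the KO PBS samples, without overlap. In wild type this quotient was 0.695 to 0.832 after HDM and 0.409 to 0.898 after PBS, with the lowest value in wild-type PBS sample 2. On set B it was 0.428 to 0.612 in the KO HDM samples and 0.610 to 0.897 in the KO PBS samples. The part of muscle RNA and of RNA quality in the results was not tested beyond leaving out the 3 muscle samples or the 2 samples of lowest quotient. Without KO HDM sample 1 the KO groups still do not overlap in this quotient on set A. HDM and RNA quality therefore cannot be told apart in KO.

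Endothelial genes had lower signals in the HDM lungs of both genotypes. In wild type 26 of the 38 members fell (68.4%), 1 rose, and 11 were not called, with limma at a Benjamini-Hochberg adjusted p under 0.05. Over all 31496 probe sets tested, 3.85% were called lower and 3.85% higher in that comparison. In KO 24 of 38 members fell (63.2%) and 0 rose, against 4.31% lower and 4.24% higher over all probe sets. An unadjusted limma p under 0.05 was found for 32 of 38 members in wild type and 29 of 38 in KO. Over all 31496 probe sets it was found for 6311 in wild type and 7109 in KO. The median log2 change of the members was -0.66 in wild type and -0.61 in KO, that is 36.7% and 34.5% less signal, while the median over all 14477 genes was -0.003 and 0.008. The 38 probe sets summed to between 44390 and 49450 units in the wild-type PBS samples and between 29046 and 30726 in the wild-type HDM samples. In KO the sums were 44066 to 48279 after PBS and 29705 to 31497 after HDM. Each HDM sample was below each PBS sample in these sums. Bright probe sets weigh most in them, such as those of Ptprb and Gpihbp1 on set B. The mean log2 level of the 38, where each gene weighs the same, was 9.72 to 9.83 in wild-type PBS and 9.09 to 9.27 in wild-type HDM samples. In KO it was 9.72 to 9.80 after PBS and 9.15 to 9.22 after HDM.

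The falls were moderate in size. Among called members they ranged from 1.37-fold (Sox18) to 2.87-fold (Tmem100) in wild type, with a median of 1.66-fold, and from 1.38-fold (Esam) to 2.43-fold (Tmem100) in KO, with a median of 1.73-fold. Only 3 members in wild type and 4 in KO fell by 2-fold or more. In wild type 31 of 38 members had all HDM samples below all PBS samples, where 12.6% of all probe sets did, and 1 had all HDM samples above, where 11.1% of all did. In KO 29 of 38 were separated downwards, against 15.7% of all probe sets, and 0 upwards, against 14.6%. Of the members, 21 fell in both genotypes, 5 were called lower in wild type only (Eng, S1pr1, Gpihbp1, Cldn5 and Sox18), 3 in KO only (Edn1, Plvap and Car4), and 9 in neither (Ednrb, Flt4, Aplnr, Nostrin, Apln, Emcn, Nos3, Mmrn2 and Vwf). A call in a single genotype does not show that the genotypes differ; the difference itself is tested further on. Without the 3 samples with muscle RNA, which leaves 1 wild-type HDM sample whose spread is assumed to equal that of the other groups, 10 members were still called lower in wild type (Tek, Kdr, Tmem100, Calcrl, Sox7, Sox17, Cdh5, Clec14a, Robo4 and Thbd). Without the 2 samples with the lowest actin ratio (wild-type PBS sample 2 and KO HDM sample 1) the counts were 17 in wild type, without the calls of Tie1, Ramp2, Sox18, Erg, Pecam1, Cldn5, Robo4, S1pr1 and Gpihbp1, and 20 in KO, without those of Cdh5, Esam, Egfl7 and Edn1.

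**Figure D1:**
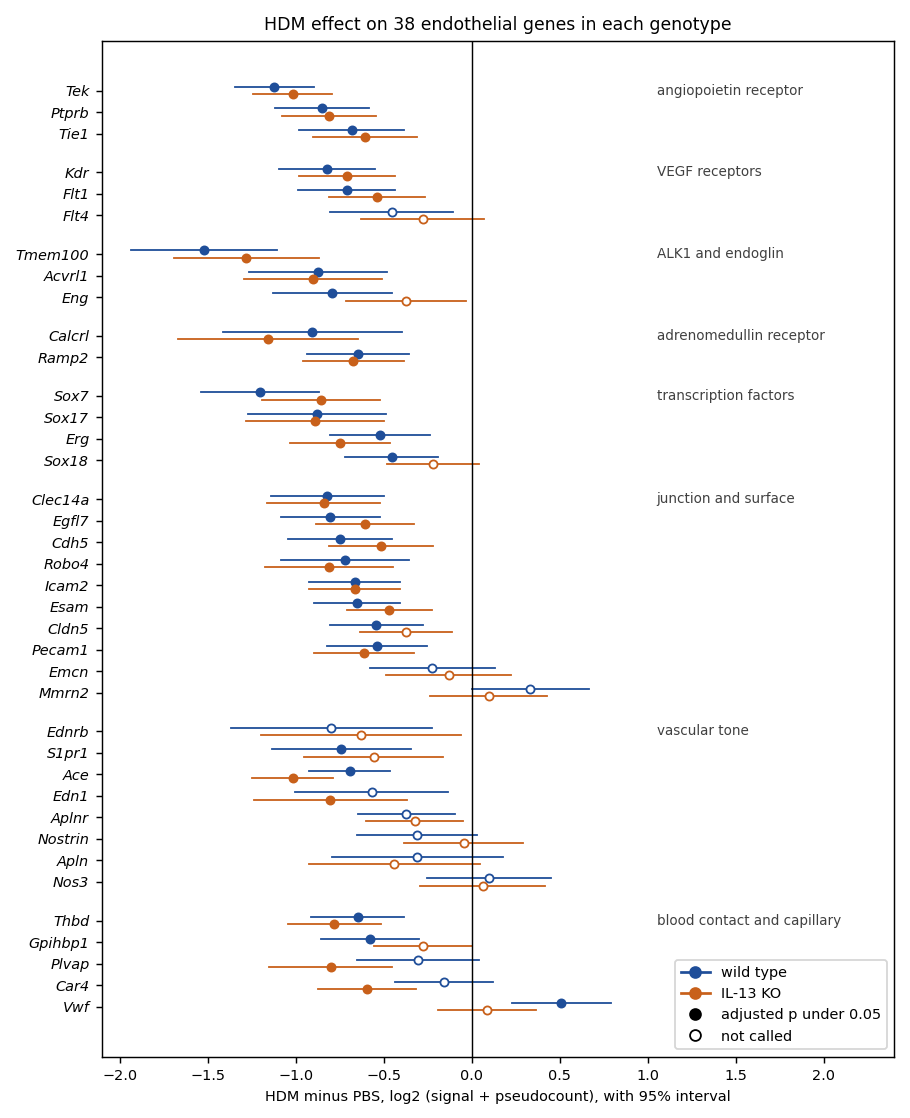
Log2 difference between HDM and PBS lungs for each of the 38 genes, grouped by role, in wild type (blue) and IL-13 KO (orange). Bars are 95% intervals from the limma fit (3 samples per group), filled points have an adjusted p under 0.05, and 35 of 38 points lie below 0 in each genotype.

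The members grouped around the angiopoietin receptor TIE2 fell in both genotypes, 3 of 3 in each. Tek encodes TIE2, the receptor for angiopoietins that maintains endothelial quiescence. Its signal was 1143, 1108 and 1020.00 in the wild-type PBS samples, 552, 499 and 445 in the wild-type HDM samples, 1081, 1089 and 1069 in the KO PBS samples and 566, 505 and 522 in the KO HDM samples. The samples of each group were close together, and the HDM and PBS samples were far apart. The log2 change was -1.12 (SE 0.10, adjusted p = 4.32e-05) in wild type and -1.02 (SE 0.10, adjusted p = 0.000105) in KO, a fall of 2.18-fold and 2.02-fold. Tie1, the second receptor of the family, which has no well established ligand of its own and modulates TIE2, was at 375, 479.5 and 522 in the wild-type PBS samples, 278, 316 and 251 in the wild-type HDM samples, 466, 463 and 424 in the KO PBS samples and 309, 279 and 295 in the KO HDM samples. PBS and HDM samples did not overlap in either genotype. It changed by -0.68 (SE 0.14, adjusted p = 0.0088) and -0.61 (SE 0.14, adjusted p = 0.0164), and the KO call was lost without any 1 of KO PBS sample 1 or 2 or KO HDM sample 2 or 3 (adjusted p = 0.0513 to 0.0624). Ptprb encodes VE-PTP, the endothelial phosphatase that removes phosphate from TIE2 and VE-cadherin. It was at 6719, 7294 and 5613 in the wild-type PBS samples, 3657, 3299.7 and 3862 in the wild-type HDM samples, 8134, 7243 and 6768 in the KO PBS samples and 4009, 4175 and 4382 in the KO HDM samples. All 6 HDM samples were below all 6 PBS samples, by -0.85 (SE 0.12, adjusted p = 0.00113) in wild type and -0.81 (SE 0.12, adjusted p = 0.00171) in KO. The 2 further tested probe sets of Ptprb were also lower in both genotypes, but neither was called in wild type.

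Of the VEGF receptors, Kdr and Flt1 fell in both genotypes and Flt4 was not called in either. Kdr encodes VEGFR2, the main signalling receptor for VEGF. It was at 1163, 1087 and 1157 in the wild-type PBS samples, 755, 608 and 567 in the wild-type HDM samples, 877, 1077 and 933 in the KO PBS samples and 567, 640.3 and 549 in the KO HDM samples. All HDM samples lay below all PBS samples, and the change was -0.82 (SE 0.13, adjusted p = 0.0016) in wild type and -0.71 (SE 0.13, adjusted p = 0.00433) in KO. Flt1 encodes VEGFR1, which binds VEGF tightly and acts largely as a decoy in endothelium. Its signal was 486, 512 and 485 in the wild-type PBS samples, 257, 317 and 322 in the wild-type HDM samples, 509, 478 and 471 in the KO PBS samples and 369.7, 283 and 345 in the KO HDM samples. The ranges were separate again, at -0.71 (SE 0.13, adjusted p = 0.00427) and -0.54 (SE 0.13, adjusted p = 0.0198), and the KO call was lost without any 1 of KO PBS sample 1 or 3 or KO HDM sample 2 (adjusted p = 0.0524 to 0.0797). Another tested probe set of Flt1 was called lower in both genotypes, at -0.64 and -0.92. The remaining ones were called in neither, at -0.38 and -0.69 in wild type and -0.45 and -0.68 in KO. Flt4, the receptor for VEGF-C that is best known from lymphatic endothelium, had wild-type ranges of 286 to 429 (PBS) and 219 to 281 (HDM) and KO ranges of 289 to 354 (PBS) and 237 to 284 (HDM). Its HDM samples were below its PBS samples in both genotypes, yet the differences of -0.45 (SE 0.16, adjusted p = 0.119) and -0.28 (SE 0.16, adjusted p = 0.334) missed the threshold.

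The ALK1 and endoglin group held the largest fall of the 38. Tmem100 encodes a small membrane protein of lung capillaries and arteries that is known to be induced by BMP9 and BMP10 through ALK1. Its signal was 797, 890.2 and 598 in the wild-type PBS samples, 336, 239 and 211 in the wild-type HDM samples, 829.7, 666 and 839 in the KO PBS samples and 322, 349.8 and 276 in the KO HDM samples. Wild-type PBS sample 3, the lowest of the PBS samples, was still well above the highest HDM sample. The change was -1.52 (SE 0.19, adjusted p = 0.000432) in wild type, a 2.87-fold fall, and -1.28 (SE 0.19, adjusted p = 0.00151) in KO, a 2.43-fold fall. A second probe set of Tmem100 fell too, by 1.16 in wild type and 0.85 in KO on the log2 scale. Acvrl1, which encodes ALK1 itself, was at 1609, 2590.5 and 1602 in the wild-type PBS samples, 1079, 1064 and 937 in the wild-type HDM samples, 1931, 2670.01 and 2267 in the KO PBS samples and 1090.3, 1226 and 1326 in the KO HDM samples. Wild-type PBS sample 2 was high among its group, but no HDM sample reached any PBS sample. The difference was -0.87 (SE 0.18, adjusted p = 0.0108) and -0.90 (SE 0.18, adjusted p = 0.0089).

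Eng encodes endoglin, the co-receptor that presents BMP9 to ALK1. It was at 1492, 1652 and 2276 in the wild-type PBS samples, 1087, 1045 and 944 in the wild-type HDM samples, 1768, 1465 and 1466 in the KO PBS samples and 1177, 1075 and 1375 in the KO HDM samples. Wild-type PBS sample 3 was the highest of all, and the HDM samples were below the PBS samples in both genotypes. The wild-type difference of -0.79 (SE 0.16, adjusted p = 0.00804) was called, while that in KO of -0.37 (SE 0.16, adjusted p = 0.176) was not. The KO minus wild-type difference of the effect was 0.42 with a 95% interval of -0.06 to 0.90, so the pair of effects was not separated. The other tested probe set of Eng was called lower in both genotypes, at -1.13 in wild type and -0.86 in KO.

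Both members of the adrenomedullin receptor fell in both genotypes. Calcrl encodes the receptor protein and Ramp2 the partner that makes it respond to adrenomedullin, a peptide that tightens the endothelial barrier. Calcrl was at 1322, 955 and 1113 in the wild-type PBS samples, 713, 681 and 433 in the wild-type HDM samples, 1145, 991 and 1240.1 in the KO PBS samples and 696, 489 and 364 in the KO HDM samples. Although the samples of each HDM group spread widely, none reached the PBS range. The change was -0.91 (SE 0.23, adjusted p = 0.0346) in wild type and -1.16 (SE 0.23, adjusted p = 0.00947) in KO, and the wild-type call was lost without any 1 of wild-type PBS sample 1 or 3 or wild-type HDM sample 2 or 3 (adjusted p = 0.0523 to 0.138). The other 2 tested probe sets of Calcrl were not called in either genotype; they gave -0.94 and -0.22 in wild type, and 1 of them was at 0.62 in KO. Ramp2 was at 2153, 2642 and 2638 in the wild-type PBS samples, 1406, 1658 and 1675 in the wild-type HDM samples, 2643, 3152 and 2279 in the KO PBS samples and 1714, 1692 and 1610.03 in the KO HDM samples. Here too PBS and HDM did not overlap, with differences of -0.65 (SE 0.13, adjusted p = 0.0105) and -0.67 (SE 0.13, adjusted p = 0.0083).

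The 4 endothelial transcription factors all fell in wild type, and 3 of 4 in KO. Sox7, a SOXF factor of vessel development, was at 591, 540.2 and 477 in the wild-type PBS samples, 284, 204 and 206 in the wild-type HDM samples, 505, 409 and 469.8 in the KO PBS samples and 234, 237 and 285 in the KO HDM samples. The highest HDM sample was well below the lowest PBS sample in both genotypes. The log2 change was -1.20 (SE 0.15, adjusted p = 0.000511) and -0.86 (SE 0.15, adjusted p = 0.00477). A second, dimmer Sox7 probe set on set B went the other way in wild type, at 0.69 with an adjusted p of 0.398, and was not called in KO, at -0.89 with an adjusted p of 0.227, so the calls of Sox7 rest on its brighter probe set. Sox17, known for arterial identity and for heritable pulmonary arterial hypertension, was at 295, 312 and 353 in the wild-type PBS samples, 219.5, 163 and 137 in the wild-type HDM samples, 243, 239 and 301 in the KO PBS samples and 160.1, 121 and 133 in the KO HDM samples. The ranges were separate, with changes of -0.88 (SE 0.18, adjusted p = 0.0101) and -0.89 (SE 0.18, adjusted p = 0.0095). The other tested probe set of Sox17 was called in neither genotype, at -0.61 (adjusted p = 0.0659) in wild type and -0.23 (adjusted p = 0.514) in KO.

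Sox18, the third SOXF factor, which is also needed for lymphatic vessels, was at 1195, 1491 and 1517 in the wild-type PBS samples, 1147, 973 and 933 in the wild-type HDM samples, 1262, 1242 and 1174 in the KO PBS samples and 958, 1105 and 1092 in the KO HDM samples. Its ranges were close but separate. The wild-type difference of -0.46 (SE 0.12, adjusted p = 0.038) was the smallest that was called, and that in KO, -0.22 (SE 0.12, adjusted p = 0.303), was not. The wild-type call was lost without any 1 of wild-type PBS sample 2 or 3, wild-type HDM sample 2 or 3, KO PBS sample 1, 2 or 3 or KO HDM sample 2 or 3 (adjusted p = 0.051 to 0.138), and also with the replicate number as a block (adjusted p = 0.0646). Erg encodes an ETS factor that drives VE-cadherin and many other endothelial genes. It was at 779, 645 and 613 in the wild-type PBS samples, 492, 519 and 398 in the wild-type HDM samples, 768, 711 and 769 in the KO PBS samples and 484, 438 and 404 in the KO HDM samples. No HDM sample reached a PBS sample of its genotype, at -0.52 (SE 0.13, adjusted p = 0.0288) in wild type and -0.75 (SE 0.13, adjusted p = 0.00387) in KO. The wild-type call of Erg was lost without any 1 of wild-type PBS sample 1 or 2 or wild-type HDM sample 3 (adjusted p = 0.0552 to 0.119).

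Among the 10 junction and surface genes 8 fell in wild type and 7 in KO. Cdh5 encodes VE-cadherin, the adhesion protein of endothelial junctions. It was at 1365, 1502 and 1339 in the wild-type PBS samples, 926, 909 and 684 in the wild-type HDM samples, 1166, 1494 and 1145 in the KO PBS samples and 881, 889 and 867 in the KO HDM samples. HDM and PBS samples were apart in both genotypes. Cdh5 changed by -0.75 (SE 0.14, adjusted p = 0.00502) and by -0.51 (SE 0.14, adjusted p = 0.0354), and the KO call was lost without any 1 of KO PBS sample 1, 2 or 3 or KO HDM sample 1, 2 or 3 (adjusted p = 0.0517 to 0.12). A second, dimmer probe set of Cdh5 was called in neither genotype, at -0.75 (adjusted p = 0.119) and -0.89 (adjusted p = 0.0595). Pecam1 encodes CD31, an adhesion protein of endothelium that platelets and some leukocytes also carry. Its signal was 1098, 1433 and 1165 in the wild-type PBS samples, 933, 749 and 853 in the wild-type HDM samples, 1152, 1416 and 1149.7 in the KO PBS samples and 804, 765 and 843 in the KO HDM samples. The HDM samples were again below the PBS samples, by -0.54 (SE 0.13, adjusted p = 0.026) and -0.61 (SE 0.13, adjusted p = 0.0122). In wild type the call was lost without any 1 of wild-type PBS sample 2 or wild-type HDM sample 2 or 3 (adjusted p = 0.071 to 0.0999), and in KO without KO HDM sample 2 (adjusted p = 0.0509).

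Esam, a junctional immunoglobulin protein, was at 1490.3, 1577 and 1251 in the wild-type PBS samples, 925, 859 and 944 in the wild-type HDM samples, 1473, 1376 and 1200.1 in the KO PBS samples and 974, 953 and 984 in the KO HDM samples. The HDM samples clustered tightly below the PBS samples. The difference was -0.65 (SE 0.11, adjusted p = 0.00348) and -0.47 (SE 0.11, adjusted p = 0.0222), with the KO call lost without any 1 of KO PBS sample 1 or 2 or KO HDM sample 1, 2 or 3 (adjusted p = 0.063 to 0.0911). Cldn5 encodes claudin-5, the tight junction protein of endothelium. It was at 1657, 1585 and 1518 in the wild-type PBS samples, 1119, 976 and 1176 in the wild-type HDM samples, 1784, 1729.7 and 1488 in the KO PBS samples and 1178, 1199.8 and 1488 in the KO HDM samples. KO HDM sample 3 lay level with the lowest KO PBS sample to the last digit printed, and the other HDM samples were lower. The wild-type difference of -0.54 (SE 0.12, adjusted p = 0.0161) was called and the KO difference of -0.37 (SE 0.12, adjusted p = 0.0784) was not; the wild-type call was lost without any 1 of wild-type PBS sample 1 or wild-type HDM sample 2 (adjusted p = 0.0525 to 0.069). Icam2, an adhesion molecule that resting endothelium carries all the time, was at 1052, 1123 and 1025 in the wild-type PBS samples, 732, 680.2 and 603 in the wild-type HDM samples, 1129.9, 896 and 1068 in the KO PBS samples and 714, 612 and 612 in the KO HDM samples. Its groups did not overlap, and the fall was the same to 2 decimals in both genotypes, at -0.67 (SE 0.12, adjusted p = 0.00449) and -0.67 (SE 0.12, adjusted p = 0.00457).

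Clec14a encodes an endothelial lectin-like protein that binds multimerin-2, the product of Mmrn2. It was at 732, 1031 and 776 in the wild-type PBS samples, 548, 458 and 415 in the wild-type HDM samples, 993, 994 and 1118 in the KO PBS samples and 646, 535 and 547 in the KO HDM samples. The HDM samples were below every PBS sample of their genotype. The change was -0.82 (SE 0.15, adjusted p = 0.00474) and -0.84 (SE 0.15, adjusted p = 0.00423), and a second probe set fell further, by 1.38 and 1.55 on the log2 scale. Robo4, a receptor that stabilises vessels, was at 279.7, 271 and 321 in the wild-type PBS samples, 197, 189.6 and 139 in the wild-type HDM samples, 305, 322 and 297 in the KO PBS samples and 192, 138 and 194 in the KO HDM samples. All HDM samples were below all PBS samples. It changed by -0.72 (SE 0.17, adjusted p = 0.0205) and -0.81 (SE 0.17, adjusted p = 0.0105), and the wild-type call was lost without any 1 of wild-type PBS sample 3 or wild-type HDM sample 3 (adjusted p = 0.071 to 0.0877). Egfl7, a secreted endothelial matrix protein, was at 1152, 1272 and 1248 in the wild-type PBS samples, 581, 785 and 743 in the wild-type HDM samples, 994, 1049.5 and 991 in the KO PBS samples and 597, 634 and 764 in the KO HDM samples. The separation was complete in both genotypes, at -0.80 (SE 0.13, adjusted p = 0.00226) and -0.61 (SE 0.13, adjusted p = 0.012), with the KO call lost without KO HDM sample 1 (adjusted p = 0.0542). All 4 tested probe sets of Egfl7 were called lower in wild type and 3 of 4 in KO, where the other was at -0.31 (adjusted p = 0.222).

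The remaining 2 surface genes did not follow. Mmrn2 ranged from 431 to 640.3 in wild-type PBS, 577 to 725 in wild-type HDM, 478 to 594 in KO PBS and 531 to 643 in KO HDM samples. The groups overlapped, and the differences of 0.33 (SE 0.15, adjusted p = 0.25) and 0.10 (SE 0.15, adjusted p = 0.769) were not called. Its 4 tested probe sets gave wild-type changes between -0.22 and 0.33 and KO changes between -0.34 and 0.46, none of them called. Emcn encodes endomucin, a sialoglycoprotein of capillaries and veins that limits leukocyte adhesion. It ranged from 275 to 354 and 216 to 289.7 in wild-type PBS and HDM and from 193 to 267 and 186 to 219 in KO PBS and HDM. These ranges overlapped between treatments, with differences of -0.22 (SE 0.16, adjusted p = 0.509) and -0.13 (SE 0.16, adjusted p = 0.696).

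**Figure D2:**
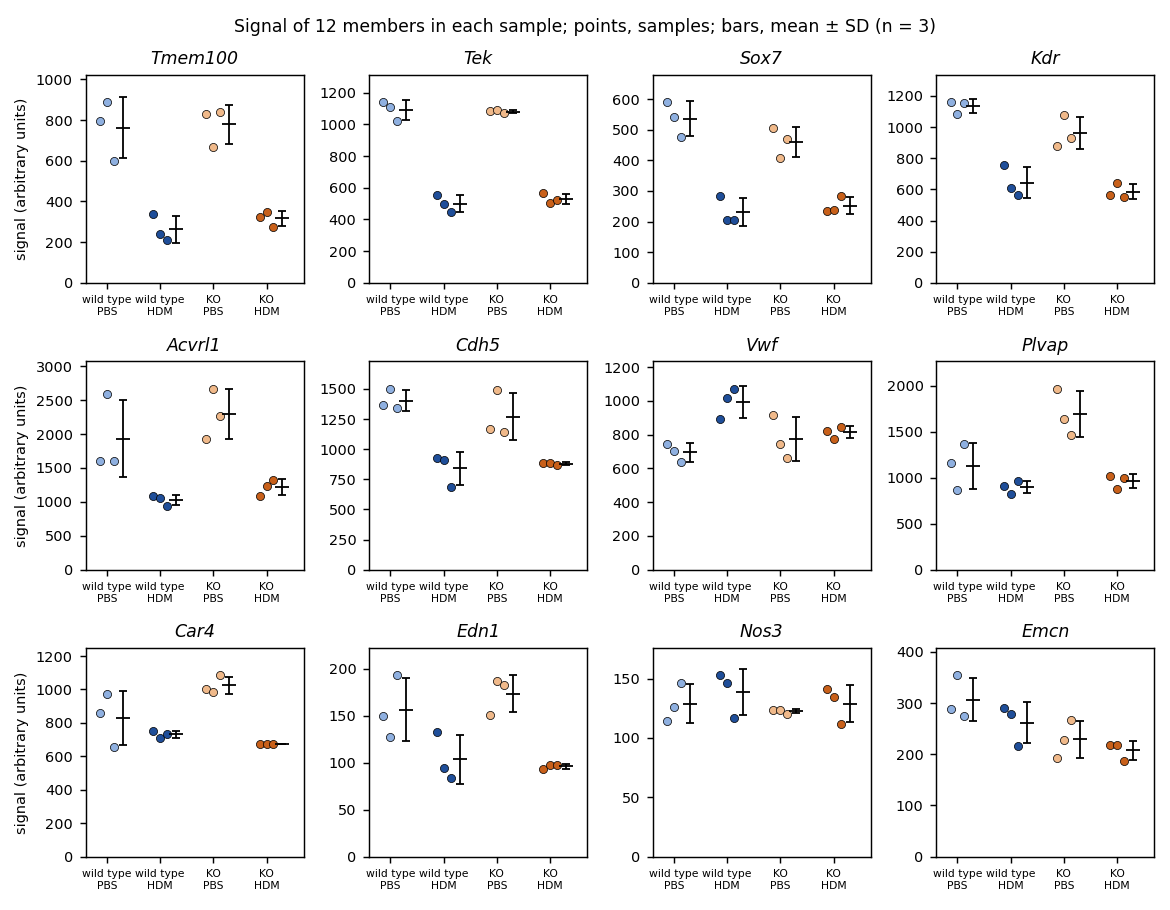
Signal of 12 members in every sample, by group, in arbitrary units from 0; each point is 1 sample and the bar is the mean ± SD (n = 3). Tmem100, Tek, Sox7, Kdr, Acvrl1 and Cdh5 were separated by treatment in both genotypes, Vwf was raised in the wild-type HDM samples, Plvap, Car4 and Edn1 were called lower in KO, and Nos3 and Emcn overlapped between treatments.

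Of the 8 genes of vascular tone 2 were called lower in each genotype, and their median log2 change was -0.47 in wild type and -0.50 in KO. Ace encodes angiotensin-converting enzyme, which is carried on the surface of lung capillaries. It was at 1244, 1458 and 1329 in the wild-type PBS samples, 874, 821 and 789 in the wild-type HDM samples, 1520.00, 1674 and 1432 in the KO PBS samples and 748, 827 and 700.2 in the KO HDM samples. Every HDM sample was below every PBS sample. Ace fell by 1.62-fold in wild type, a log2 change of -0.69 (SE 0.11, adjusted p = 0.00166), and by 2.02-fold in KO, -1.02 (SE 0.11, adjusted p = 0.000124). Its second probe set, almost as bright, gave -0.33 (adjusted p = 0.301) in wild type, which was not called, and -0.80 (adjusted p = 0.0118) in KO, so the wild-type call rests on the brighter probe set. S1pr1, the receptor for sphingosine 1-phosphate that supports the endothelial barrier and is also present on lymphocytes, was at 482, 577 and 544 in the wild-type PBS samples, 334, 343 and 275 in the wild-type HDM samples, 315, 512 and 473 in the KO PBS samples and 241, 296 and 328 in the KO HDM samples. KO PBS sample 1 was low and fell within the range of the KO HDM samples. The difference was -0.74 (SE 0.18, adjusted p = 0.027) in wild type, which was lost without any 1 of wild-type PBS sample 2 or 3 or wild-type HDM sample 1 or 3 (adjusted p = 0.0513 to 0.112), and -0.56 (SE 0.18, adjusted p = 0.0818) in KO, not called. Edn1 encodes endothelin-1, a vasoconstrictor. Its signal was 149.6, 127 and 193 in the wild-type PBS samples, 133, 94.3 and 83.5 in the wild-type HDM samples, 151, 187 and 183 in the KO PBS samples and 93.3, 97.2 and 97.4 in the KO HDM samples. In wild type HDM sample 1 lay within the PBS range, while in KO the ranges were separate. The wild-type difference of -0.57 (SE 0.20, adjusted p = 0.117) was not called and the KO difference of -0.80 (SE 0.20, adjusted p = 0.0268) was, though it was lost without any 1 of KO PBS sample 2 or 3 or KO HDM sample 1, 2 or 3 (adjusted p = 0.0705 to 0.0896).

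The other 5 genes of this group were called in neither genotype. Ednrb, the endothelin receptor that marks the large aerocyte capillary cells, ranged from 1233 to 1675 in wild-type PBS to 562 to 1144 in wild-type HDM, and from 1078 to 1498 in KO PBS to 635 to 1145 in KO HDM. Its differences of -0.80 (SE 0.26, adjusted p = 0.092) and -0.63 (SE 0.26, adjusted p = 0.176) were as large as those of called genes, with a wider spread among HDM samples. Its other tested probe sets were called in neither genotype, at -0.75 and -0.68 in wild type and a smaller -0.06 and -0.40 in KO. Aplnr, the apelin receptor of general capillary cells, changed by -0.37 (adjusted p = 0.104) and -0.33 (adjusted p = 0.143), and its HDM samples were below its PBS samples in both genotypes. Apln, its ligand, which aerocytes make, changed by -0.31 (adjusted p = 0.506) and -0.44 (adjusted p = 0.27). Nostrin, an adaptor that moves endothelial nitric oxide synthase off the membrane, changed by -0.31 (adjusted p = 0.297) and -0.05 (adjusted p = 0.901). Nos3, which encodes that synthase, ranged from 114 to 146 and 117 to 153 in wild-type PBS and HDM and from 121 to 124 and 111 to 141 in KO. Its groups overlapped throughout, at 0.10 with a 95% interval of -0.26 to 0.45 in wild type and 0.06 with -0.29 to 0.42 in KO.

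Of the genes for blood contact and capillary specialisation, Thbd fell in both genotypes, and Vwf was the single member that rose. Thbd encodes thrombomodulin, the surface anticoagulant. It was at 1509, 1587 and 1444 in the wild-type PBS samples, 1105, 951 and 849 in the wild-type HDM samples, 1829, 1688 and 1498 in the KO PBS samples and 1076, 913 and 921 in the KO HDM samples. The ranges were separate, at -0.65 (SE 0.12, adjusted p = 0.006) and -0.78 (SE 0.12, adjusted p = 0.00198). Vwf encodes von Willebrand factor, the clotting protein of larger vessels and veins that megakaryocytes also make. It was at 744, 706 and 635 in the wild-type PBS samples, 889.9, 1016 and 1073 in the wild-type HDM samples, 917, 742 and 659.8 in the KO PBS samples and 819.99, 775 and 846 in the KO HDM samples. The wild-type HDM samples were the highest group, and of the other samples KO PBS sample 1 alone reached into their range. The wild-type rise was 1.42-fold, 0.51 (SE 0.13, adjusted p = 0.0312), and the KO difference was 0.09 (SE 0.13, adjusted p = 0.749). The rise was lost without any 1 of wild-type PBS sample 2 or 3 or wild-type HDM sample 2 or 3 (adjusted p = 0.0703 to 0.119), and also without the 3 muscle samples, without the 2 samples of lowest actin ratio and with the replicate number as a block. The 7 tested platelet and megakaryocyte markers, by comparison, summed to 918 to 1065 in wild-type PBS and 863 to 983 in wild-type HDM samples.

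Gpihbp1 anchors lipoprotein lipase on capillaries. It was at 4904, 5708 and 4539 in the wild-type PBS samples, 3168, 3465 and 3480.5 in the wild-type HDM samples, 4293, 4558 and 3761 in the KO PBS samples and 3858, 2995 and 3584 in the KO HDM samples. The wild-type groups were separate and the KO groups overlapped. The difference was -0.58 (SE 0.13, adjusted p = 0.0162), lost without any 1 of wild-type PBS sample 2 or wild-type HDM sample 1 (adjusted p = 0.0521 to 0.0693), against -0.28 (SE 0.13, adjusted p = 0.227) in KO. Plvap forms the diaphragms of endothelial caveolae and marks general capillary and venous cells. Its signal was 1162, 864 and 1362 in the wild-type PBS samples, 909, 826 and 959 in the wild-type HDM samples, 1968, 1639 and 1467 in the KO PBS samples and 1016, 878 and 993 in the KO HDM samples. The KO PBS samples were the highest of all groups, and the wild-type groups overlapped. The wild-type difference was -0.31 (SE 0.16, adjusted p = 0.32) and the KO difference -0.80 (SE 0.16, adjusted p = 0.00879). Car4 encodes carbonic anhydrase 4, a capillary surface enzyme that is strong in aerocytes. It was at 859, 972 and 653 in the wild-type PBS samples, 749, 711 and 733 in the wild-type HDM samples, 1004, 988 and 1084 in the KO PBS samples and 675, 674 and 676 in the KO HDM samples. The KO PBS samples were again the highest, the KO HDM samples were almost identical, and the wild-type groups overlapped. The wild-type difference of -0.16 (SE 0.13, adjusted p = 0.558) was not called, and the KO difference of -0.60 (SE 0.13, adjusted p = 0.0128) was lost without KO PBS sample 3 (adjusted p = 0.0544).

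Of the 38 members 17 had more than 1 tested probe set, 43 in all, and in 15 of the 17 every probe set was lower after HDM in wild type; the same count, 15, held in KO. Over all 64 tested probe sets of the members, 34 were called lower in wild type and 34 in KO, and 1 (that of Vwf) was called higher in wild type. Among the exceptions were Mmrn2 in both genotypes, Sox7 in wild type and Calcrl in KO.

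The mean log2 level of 5 pan-endothelial members (Cdh5, Tie1, Erg, Egfl7 and Esam) in each sample was subtracted from every probe set. The refit asks which members changed more or less than these 5 genes. These reference genes were chosen with earlier results known, were all called lower in both genotypes and get no test themselves. All changes in a comparison shift by the same amount, so the order of the members stays the same. The reference does not stand for all endothelial RNA: the further pan-endothelial genes described below had medians of -0.41 in wild type and -0.39 in KO. Tek and Tmem100 fell further than the reference in both genotypes: Tek by -0.44 (SE 0.11, adjusted p = 0.00473) and -0.43 (SE 0.11, adjusted p = 0.00674), and Tmem100 by -0.84 (SE 0.19, adjusted p = 0.00358) and -0.69 (SE 0.19, adjusted p = 0.0116). Sox7 did so in wild type, at -0.52 (SE 0.17, adjusted p = 0.0174), and Ace in KO, at -0.43 (SE 0.11, adjusted p = 0.00719). Of all probe sets, 0.435% were called lower than the reference in wild type and 0.61% in KO; the reference itself had fallen.

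Other members stood above the reference after HDM. Vwf (1.19 and 0.68), Mmrn2 (1.01 and 0.68), Nos3 (0.78 and 0.65) and Emcn (0.46 and 0.46) were so in both genotypes. Car4 was so in wild type, at 0.52 (SE 0.14, adjusted p = 0.00669), and Nostrin (0.54), Sox18 (0.37) and Gpihbp1 (0.31) in KO. Since 62.3% of all probe sets in wild type and 50.8% in KO were called higher than the falling reference, these calls say that the genes held their level better than the 5 reference genes and nothing more. With the mean of all 38 members as the reference, Emcn in wild type (adjusted p = 0.06) and Gpihbp1 in KO (adjusted p = 0.0673) were no longer called.

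**Figure D3:**
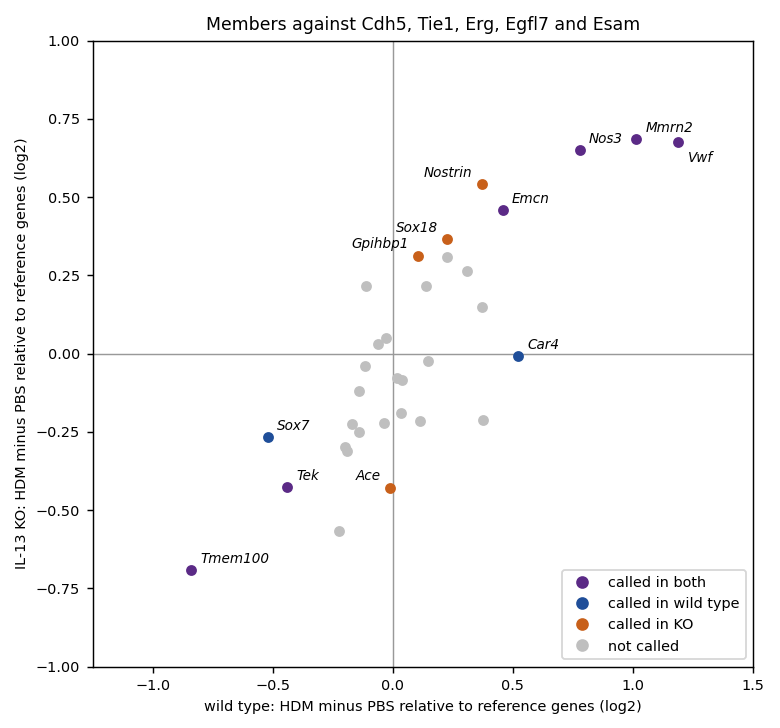
Log2 change after HDM relative to the mean of Cdh5, Tie1, Erg, Egfl7 and Esam, in wild type (horizontal) against IL-13 KO (vertical), for the other 33 members. Tmem100 and Tek lie at the lower left and Vwf, Mmrn2, Nos3 and Emcn at the upper right, called in both genotypes.

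No member's response to HDM was separated between the genotypes. The interaction, the KO effect minus the wild-type effect, was called in 0 of 38 members by limma; 3 members (Car4, Plvap and Vwf) had an unadjusted p under 0.05, as did 1797 of the 31496 probe sets, of which 0.0857% were called. The median interaction over the members was 0.04 on the log2 scale, beside 0.02 over all genes. All 38 of the 95% intervals of the interaction lay between -1 and 1, and 9 lay within -0.5 and 0.5, with a median interval of 0.42 to each side, so smaller differences in single genes could not be resolved with 3 samples per group. For Car4 it was -0.44 with an interval of -0.83 to -0.04 (unadjusted p = 0.0321, adjusted p = 0.854). Plvap gave -0.50 with -0.99 to -0.00 (adjusted p = 0.871), and Vwf -0.42 with -0.82 to -0.03 (adjusted p = 0.857).

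In the PBS lungs 0 of 38 members were called between KO and wild type by limma, against 0.0381% of all probe sets; 3 of 38 members and 2143 of 31496 probe sets had an unadjusted p under 0.05. Plvap had the largest difference, higher in KO by 0.59 (SE 0.16, adjusted p = 0.483), with 1467 to 1968 in KO and 864 to 1362 in wild type. Car4 was at 0.32 (SE 0.13, adjusted p = 0.673) and Emcn at -0.41 (SE 0.16, adjusted p = 0.673), and their ranges too were separate. In all 3 members had separate ranges with KO lower and 2 with KO higher, against 5.71% and 5.5% of all probe sets. In the HDM lungs 0 of 38 were called, against 0.457% of all probe sets, and 2 of 38 members and 2677 probe sets had an unadjusted p under 0.05. Ranges were separate with KO lower in 2 members and KO higher in 6, against 7.29% and 7.63% of all probe sets. The 2 with the unadjusted p were Aplnr at 0.28 (SE 0.13, adjusted p = 0.566) and Vwf at -0.28 (SE 0.13, adjusted p = 0.584). The 4 contrasts share samples, so Car4 and Plvap, which stood highest in KO PBS, show their KO difference and their interaction through the same 3 samples.

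Other vascular genes were read from lists drawn up by cell type and pathway, with the members left out. Of 32 further pan-endothelial genes, 13 fell and 0 rose in wild type, and 12 fell and 0 rose in KO, with medians of -0.41 and -0.39. The wild-type count was 5 without the 3 samples with muscle RNA, and the KO count was 4 to 7 without any 1 of KO PBS sample 1, 2 or 3 or KO HDM sample 2 or 3. Foxf1, the lung mesenchymal and endothelial factor whose loss causes alveolar capillary dysplasia, was at 4979 ± 463 in wild-type PBS, 2423 ± 163 in wild-type HDM, 3772 ± 109.5 in KO PBS and 2743 ± 108 in KO HDM (SD, n = 3). It changed by -1.03 (SE 0.10, adjusted p = 6.37e-05) and -0.46 (SE 0.10, adjusted p = 0.0142). The KO call of Foxf1 was lost without KO PBS sample 3 or KO HDM sample 2 (adjusted p = 0.0513 to 0.0597) and with its second probe set (adjusted p = 0.271). Rasip1, which is needed to open vessel lumens, changed by -0.91 and -0.82, and Cav1, the caveolae protein, by -0.66 and -0.64. Arhgef15 was called in KO only, at -1.13 (SE 0.19, adjusted p = 0.00381) against -0.53 (SE 0.19, adjusted p = 0.133) in wild type.

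In the capillary and arterial lists genes fell and 0 rose, in the venous list some fell and some rose, and in the lymphatic list some rose and 0 fell; the lists were not tested against each other. Of 7 aerocyte genes tested, 5 fell and 0 rose in each genotype, with medians of -0.79 in wild type and -0.67 in KO. The count was 3 without the muscle samples or wild-type HDM sample 2 alone in wild type, and 3 without KO PBS sample 3 or KO HDM sample 1 in KO. Of the aerocyte genes left out as members, Kdr was called lower in both genotypes, Car4 in KO only, and Ednrb and Apln in neither. Rprml changed by -1.35 (SE 0.14, adjusted p = 0.000126) and -0.67 (SE 0.14, adjusted p = 0.0131), and Tbx2 by -0.58 and -0.87; the KO call of Rprml was lost without KO PBS sample 3 or KO HDM sample 1 (adjusted p = 0.0558 to 0.062), and the wild-type call of Tbx2 without wild-type HDM sample 2 (adjusted p = 0.0554). Emp2, at -0.84 and -0.91, is also an alveolar type 1 cell gene. Of 7 general capillary genes 3 fell in wild type and 2 in KO, among them Bmp6 at -1.27 (SE 0.14, adjusted p = 0.000155) and -1.10 (SE 0.14, adjusted p = 0.000515) and Sema3c at -0.81 and -0.82. The second probe set of Sema3c was called in neither genotype, at -0.49 and -0.35. Of the general capillary genes left out as members, Gpihbp1 was called lower in wild type only, Plvap in KO only and Aplnr in neither. Of 12 arterial genes 6 fell in wild type, or 2 without the muscle samples, and 4 in KO, and 0 rose. Efnb2, the ephrin of arteries, had the largest fall among the genes of these lists in wild type: it was at 670.3 ± 154 and 140.2 ± 57.0 in wild-type PBS and HDM samples and at 511 ± 94.3 and 204 ± 62.3 in KO, a change of -2.25 (SE 0.28, adjusted p = 0.000473) and -1.33 (SE 0.28, adjusted p = 0.0127). The KO call was lost without KO PBS sample 2 or KO HDM sample 2 (adjusted p = 0.0507 to 0.0522), while a second probe set was called in both genotypes, at -1.68 and -0.73. Notch1, the receptor upstream of arterial identity, changed by -0.88 and -0.62, but its second probe set was called in neither genotype, at -0.32 (adjusted p = 0.554) in wild type and an adjusted p of 0.988 in KO.

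Of 9 venous genes 1 rose and 2 fell in wild type, and 2 rose and 1 fell in KO; each of these counts went to 0 when some 1 sample was left out. Selp, which encodes P-selectin, stored with von Willebrand factor in endothelium and also in platelets, was at 44.4 ± 4.69 and 95.8 ± 8.10 in wild-type PBS and HDM samples, a rise of 1.0 (SE 0.26, adjusted p = 0.0363) on the log2 scale; in KO it was at 34.5 ± 13.9 and 65.0 ± 16.4, 0.83 (SE 0.26, adjusted p = 0.0743). The wild-type call of Selp was lost without any 1 of the 6 wild-type samples, KO PBS sample 1 or KO HDM sample 1 (adjusted p = 0.0501 to 0.107). Ackr1, the chemokine-binding protein of venules, was called in KO at 0.83 (SE 0.19, adjusted p = 0.0168) and not in wild type at 0.23 (SE 0.19, adjusted p = 0.577). The KO call of Ackr1 was lost without any 1 of KO PBS sample 1 or 3 or KO HDM sample 2 or 3 (adjusted p = 0.0518 to 0.0781). Of 7 lymphatic genes tested 2 rose in wild type (Thy1 and Fgl2) and 3 in KO (those and Reln), and 0 fell; Thy1, at 0.94 and 1.06, is also a T cell gene. Flt4, left out of this list as a member, was called in neither genotype, at -0.45 in wild type and -0.28 in KO. The calls of Fgl2 and Reln were lost without any 1 of several samples (adjusted p = 0.0612 to 0.0887 for Fgl2 in wild type, 0.0514 to 0.0699 for Fgl2 in KO and 0.0513 to 0.118 for Reln). The main lymphatic factor Prox1 and the activation marker Sele were under the filter, and so was the tip cell gene Esm1, with group means of 47.9 and 3.25 in wild-type PBS and HDM and 72.7 and 3.95 in KO. Of 8 endothelial activation genes tested, 1 rose and 1 fell in wild type, and 1 rose and 2 fell in KO. This list shares Selp, Vcam1 and Ackr1 with the venous list, and its rises are again those of Selp in wild type and Ackr1 in KO. The falls in KO were those of Cx3cl1 at -0.52 (limma adjusted p = 0.0414) and Icam1 at -0.41 (limma adjusted p = 0.0436). Both calls were lost without any 1 of several samples.

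Among 49 tested ligands, co-receptors and signalling partners of the members, 13 fell and 1 rose in wild type, and 11 fell and 0 rose in KO. Without the muscle samples 3 fell in wild type, and without wild-type HDM sample 3, 8. Bmp6, the co-receptor Tgfbr3 (-1.39 and -1.18), the receptor Bmpr2 (-0.99 and -0.89), the feedback inhibitor Smad6 (-1.16 and -1.09) and the target Id3 (-0.71 and -0.59) were called lower in both genotypes. The second probe set of Tgfbr3 was called in neither, at -0.30 and -0.26, and that of Bmpr2 was called in wild type (-0.79) and not in KO (-0.15). The KO call of Bmpr2 was also lost without KO HDM sample 2 or 3 (adjusted p = 0.055 to 0.0569). Id1 was called in wild type, at -0.67 (SE 0.12, adjusted p = 0.00492), and in KO it was at -0.34 (SE 0.12, adjusted p = 0.112). Angpt1, the TIE2 ligand, changed by -0.86 (SE 0.18, adjusted p = 0.0097) in wild type and -0.07 (SE 0.18, adjusted p = 0.853) in KO, and Vegfa, the VEGFR2 ligand made by alveolar type 1 cells, by -0.61 (SE 0.16, adjusted p = 0.0407) and -0.47 (SE 0.16, adjusted p = 0.101). The wild-type call of Vegfa was lost when any 1 of 9 samples was left out (adjusted p = 0.053 to 0.161), all but wild-type HDM sample 1 and KO HDM samples 1 and 3. Ramp3, another partner of the Calcrl receptor, was the gene that rose, at 0.92 (SE 0.20, adjusted p = 0.0151) in wild type against 0.24 (SE 0.20, adjusted p = 0.53) in KO; the call was lost without any 1 of wild-type PBS sample 2 or wild-type HDM sample 2 or 3 (adjusted p = 0.0548 to 0.0677). F3, tissue factor, the starter of clotting, was called in KO at -1.03 (SE 0.18, adjusted p = 0.00468) and was at 0.34 (SE 0.18, adjusted p = 0.336) in wild type. Smad6, Bmpr2, Id1, Angpt1, Vegfa and Ramp3 were picked for their role after their values were seen.

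**Figure D4:**
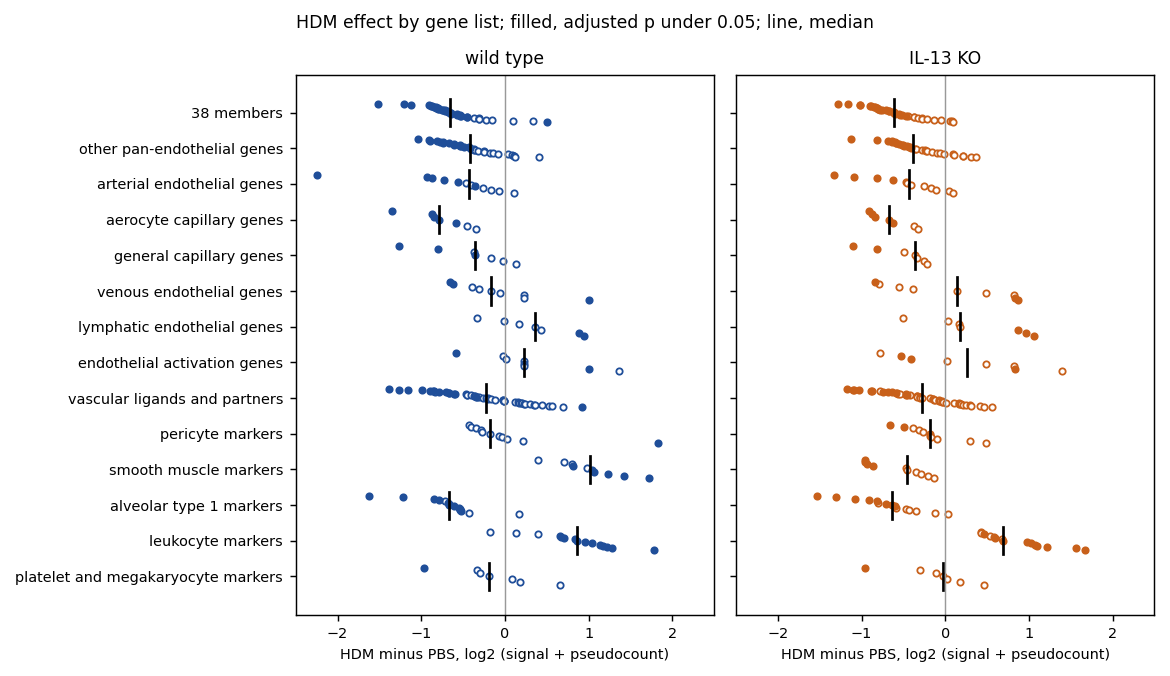
Log2 change after HDM of every tested gene of each list, in wild type (left) and IL-13 KO (right); filled points have an adjusted p under 0.05 and the black line is the list's median. The 38 members and the pan-endothelial, arterial and aerocyte lists lie mostly below 0 in both genotypes, leukocyte markers lie above 0, and most smooth muscle markers lie above 0 in wild type and below 0 in KO.

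Markers of other cell types moved at the same time. Leukocyte markers rose, 12 of 15 in wild type (7 without wild-type HDM sample 3) and 10 of 15 in KO with 0 lower, and their summed signal went from 5252 to 6069 in wild-type PBS samples to 8478 to 12125 in wild-type HDM samples, and from 6720 to 7271 in KO PBS samples to 11998 to 12873 in KO HDM samples. Cd52, a leukocyte surface glycoprotein, changed by 1.78 and 1.67. Alveolar type 1 cell markers fell with the endothelial genes, 10 of 15 in wild type (5 without the muscle samples) and 8 of 15 in KO with 0 higher; their sums were 47829 to 55051 and 30625 to 37178 in wild-type PBS and HDM, and 55078 to 60360 and 37848 to 41243 in KO PBS and HDM. Their median log2 change was -0.66 in wild type and -0.64 in KO. The list is not separate from the vascular ones: it shares Cav1 with the pan-endothelial list, Emp2 with the aerocyte list and Vegfa with the ligands. In KO the median is the value of Cav1 itself. Aqp5, the water channel of alveolar type 1 cells, changed by -1.22 and -1.08. Of the alveolar type 2 markers, 2 of 11 fell in wild type (1 when any sample but wild-type HDM sample 1 was left out, 0 without the muscle samples) and 0 of 11 in KO, with medians of -0.05 and 0.10. Each array is scaled to a common mean, so the signals are relative to the total RNA measured; the part of the leukocyte rise in the fall of the endothelial members was not tested.

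Of 10 tested markers of smooth muscle, which also forms the vessel wall, 6 rose and 0 fell in wild type, and 5 to 6 rose under every alternative setting. In KO 0 rose and 4 fell, but 0 fell without any 1 of KO PBS sample 1 or KO HDM sample 2 or 3. For the interaction 6 were called lower, 1 to 4 when 1 sample was left out, and 0 without the 3 samples with muscle RNA or without the 2 samples of lowest actin ratio; the median interaction of the 10 was -1.51, and -1.73 to -1.27 over these settings. Acta2, smooth muscle actin, was at 1230.3 ± 139 and 2541 ± 267 in wild-type PBS and HDM samples and at 1194 ± 153 and 1081 ± 94.8 in KO, an interaction of -1.18 (SE 0.19, adjusted p = 0.0465), a call that was lost in 16 of 25 alternative settings, among them 10 of the 12 that leave out 1 sample (adjusted p = 0.062 to 0.166). Other smooth muscle markers had a smaller interaction p than Acta2. Actg2 was at -2.19 (limma adjusted p = 0.00759), a call that held when any 1 sample was left out. Tagln and Tpm2 were at -1.42 and -2.36 (limma adjusted p = 0.0165 for each), calls that were lost without any 1 of several samples. Of 11 pericyte markers 1 rose (Rgs5, 1.82) and 0 fell in wild type, and 0 rose and 2 fell in KO (Pdgfrb and Mcam), which went to 0 without any 1 of KO PBS sample 1 or 3 or KO HDM sample 1 or 3. Airway and vascular smooth muscle share these markers, and their part in the results on the members was not tested. The list of cardiac muscle markers, which includes genes of the pulmonary vein wall, had 2 of 10 lower in wild type and 7 of 10 lower in KO (0 in wild type without the muscle samples, and 4 in KO without any 1 of KO PBS sample 1 or KO HDM sample 2 or 3), and 2 of 4 mesothelial markers were lower in each. The summed signal of red blood cell markers was lower in every HDM sample than in every PBS sample of its genotype: the 5 on the arrays summed to 1557 to 2055 and 1196 to 1457 in wild-type PBS and HDM samples, and to 2008 to 2344 and 945 to 1239 in KO PBS and HDM samples. Bright genes weigh most in a sum. The mean log2 level of the same 5 overlapped in wild type, at 6.85 to 6.98 after PBS and 6.62 to 6.90 after HDM. In KO it did not, at 6.92 to 7.27 and 6.55 to 6.84. Hba-a1, under the filter, had higher group means after HDM: 23.8 and 36.3 in wild-type PBS and HDM, and 22.6 and 29.4 in KO. Of the 3 that passed the filter, 1 rose (Tfrc, the transferrin receptor of many dividing cells) and 1 fell (Alas2) in wild type and 2 fell in KO (Alas2 and Slc4a1), and their part in the results was not tested.

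**Figure D5:**
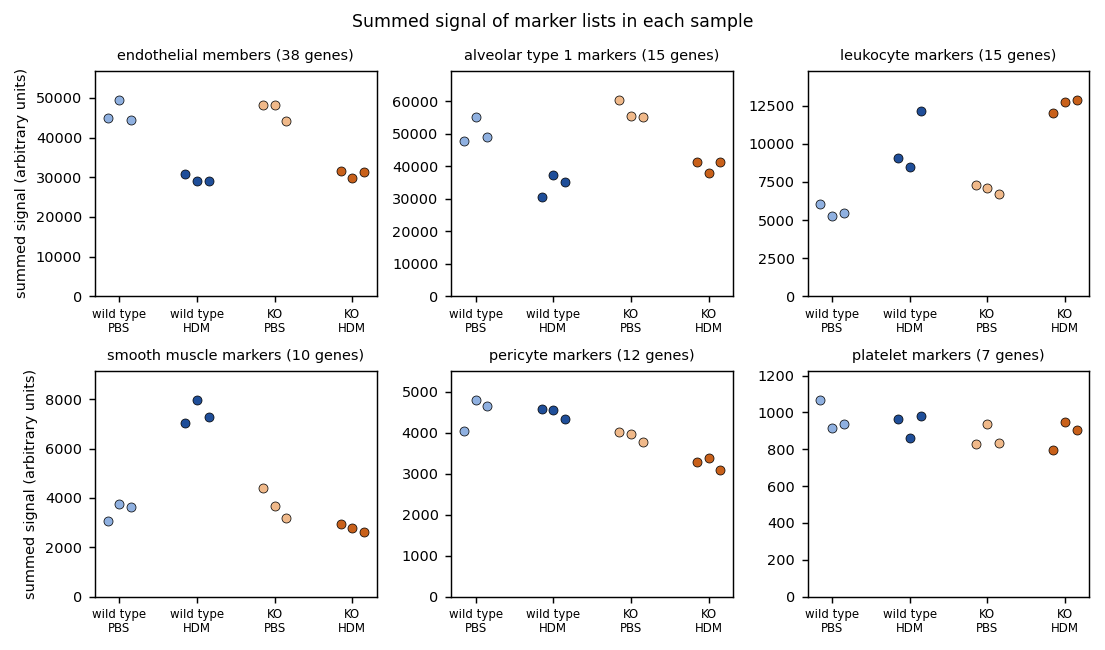
Summed signal of the endothelial members and of marker lists for other cells in each sample, in arbitrary units from 0; each point is 1 sample. The members and the alveolar type 1 markers were lower in every HDM sample, the leukocyte markers were higher, and the platelet markers overlapped between all groups.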

How the data were processed

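The deposited values are linear intensities, 1 per probe set and array, from 24 arrays holding 12 samples; the authors' scaling (trimmed mean 150 on every array, as the values show) was kept, and no source used here names the software. Gene names came from the platform annotation, and promoter windows from RefSeq. The intensities were taken as log2(value + pseudocount), with pseudocounts of 7 (set A) and 11 (set B), so a fold change understates that of dim genes. Probe sets under the 30th percentile of mean log2 signal of their set (signals of 32.0 and 39.2) were left out. A single limma 3.58.1 model in R 4.3.3, with 1 mean per group and an intensity trend, was fitted to 31496 probe sets and tested on simulated data. P-values were adjusted by Benjamini-Hochberg within each comparison, with a threshold of 0.05. The number of arrays limits the precision.

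Set B signals were 3.61 times set A signals (median over 100 shared probe sets), so the highest-mean rule favours set B; an alternative preferring set A was added after seeing the data. Members, lists, reference genes and the rule for naming genes (every called member, and per list the up to 4 called genes of smallest p) were chosen with earlier results of these data known. For the lists the text names fewer genes than the rule allows, and not always those of smallest p. Bst1 of the venous list, for example, rose in KO by 0.87 (limma adjusted p = 0.0146), a smaller p than that of Ackr1. Samples of a number were checked for pairing by the correlation of their deviations from group means: 1 of 18 same-number pairs had r over 0.1, so the number was not used. Alternatives changed the pseudocount, filter, normalization, variance prior, samples fitted, probe set, replicate block and samples left out.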

Additional observations from a re-analysis of the deposited data

How the results depend on the processing

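Over 25 alternative settings per comparison, 5 of the 27 wild-type calls (Clec14a, Kdr, Tek, Thbd and Tmem100) and 13 of the 24 KO calls held in every setting, and 18 and 16 held when any 1 sample was left out. The count of members lower in wild type, 26, went to 17 when only the groups compared were fitted, to 17 without the 2 samples of lowest actin ratio and to 10 without the 3 samples with muscle RNA; leaving out 1 sample gave 20 to 26. The single rise, Vwf, went to 0 in those settings, with eBayes without trend and with the replicate block, and to 0 to 1 when 1 sample was left out. The replicate block left 25 members lower in wild type and 24 in KO. The KO count of 24 stayed between 18 and 25 in all settings. The wild-type median, -0.66, was -0.57 with the median over probe sets. The interaction median, 0.04, was -0.0318 with the second probe set, -0.0322 without the samples of lowest actin ratio, and 0.11 without the muscle samples. The KO minus wild-type median after HDM, 0.02, was 0.11 without the muscle samples and -0.0435 to 0.0591 when 1 sample was left out. Sox7 reversed in wild type, to 0.69, with its second probe set. Over all probe sets, the 2426 wild-type calls became 1171, 979, 1407 and 1387 with only the groups compared, without the muscle samples, without the samples of lowest actin ratio and without wild-type HDM sample 3, and the 2696 KO calls became 1549 to 1699 without KO HDM sample 2 or 3 or KO PBS sample 1 or 3, 1788 without the samples of lowest actin ratio and 1793 with the median over probe sets, which tests fewer features. The 27 interaction calls over all probe sets became 1 without the muscle samples, 2 without the samples of lowest actin ratio, 6 to 19 when 1 sample was left out, 11 with the replicate block, 16 with a pseudocount of 1 and 17 with the 50th percentile filter or without trend. The 144 calls between KO and wild type after HDM became 30 and 66 without those samples and 59 to 153 when 1 sample was left out, and the 12 after PBS became 2 with only the groups compared, 6 with the median over probe sets, 5 and 6 without those samples and 6 to 20 when 1 sample was left out. The lists of other genes were put through the same alternatives after the data were seen. Beyond the settings' own loss of samples, the cause was not tested. Dim signals limit the lowest probe sets, such as Il13.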
